A study of Mus musculus with 16 samples.

Results

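The genes described here are 36 genes of synaptic vesicle fusion and regulated secretion in mouse brain, chosen by name from the 24060 gene labels of the deposited tables. All 36 were found in each of the 16 tables, and all 36 passed the filter on low values, at least 1 FPKM (fragments of a gene divided by its transcript length and by the depth of the library) in at least 4 libraries. The set holds 32 genes known mainly from nerve terminals or vesicles and 4 SNARE genes of cells other than neurons, Snap23, Stx4a, Vamp3 and Vamp8.

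RNA came from the striatum and the hippocampus of 4 mice of both sexes at postnatal day 63, numbered 970, 971, 974 and 977. All mice were Aldh1l1-creERT2 hemi; Ribotag het, on an FVB background backcrossed to C57/Bl6N for 3 generations (about 88% C57/Bl6N). The RiboTag allele puts a hemagglutinin tag on a ribosomal protein once Cre has acted, so that ribosomes of the Cre-expressing cells can be precipitated together with the RNA they carry. The Cre here was driven by the promoter of Aldh1l1, an astrocyte gene, and its CreERT2 form needs tamoxifen to act. The dose and timing of tamoxifen are not given in the sources used here. Each mouse gave 4 libraries, and each of the 4 groups held 4 libraries. The groups were the tag precipitate from striatum (Str.IP), cleared lysate of the same striata (Str.input), the tag precipitate from hippocampus (Hip.IP) and cleared lysate of the same hippocampi (Hip.input). The IP libraries hold ribosome-bound RNA of the tagged cells, and the input libraries hold RNA of all cells of the region. All 4 groups carried the tag and the Cre, and an IP from mice without the tag was not analysed here.

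A synaptic vesicle fuses with the plasma membrane when a SNARE protein on the vesicle (VAMP) zips together with SNARE proteins on the target membrane (a syntaxin and a SNAP-25 family member). Synaptotagmins sense calcium and trigger this step, complexins clamp and assist it, Munc13 and RIM proteins prepare vesicles for it at the active zone, and Rab3 GTPases bring vesicles there. Neurons use Snap25, Stx1a, Vamp1 and Vamp2, and most other cells use Snap23, Stx4a, Vamp3 and Vamp8 for the same reaction. Whether astrocytes release transmitters from vesicles, and with which of these proteins, has long been debated.

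The depth of the libraries, estimated from the steps between low FPKM values, was, in units of 1e6 fragments, 13.95 to 21.8 in Str.IP, 4.15 to 8.98 in Str.input, 18.9 to 22.6 in Hip.IP and 9.05 to 12.3 in Hip.input. All 8 astrocyte markers examined (among them Gfap, Aqp4 and Slc1a2) were called higher in IP than in input in both regions, with a median log2 fold change of 3.91 in striatum and 4.17 in hippocampus. Of 13 neuron markers, 11 were called lower in striatal IP and 13 in hippocampal IP. The summed neuron markers were still at 133.2 to 162.1 FPKM in Str.IP against 579.4 to 791.8 FPKM in Str.input, and at 112.6 to 145.5 FPKM in Hip.IP against 969.5 to 1098.5 FPKM in Hip.input. None of the 13 was at 0 in any IP library. Str.input of animals 971 and 974 stood apart from Str.input of 970 and 977. The pair 970 and 977 correlated at r = 0.972 across genes, and the pairs that included 971 or 974 at 0.882 to 0.946, while pairs in the other 3 groups were at 0.954 to 0.988.

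Most genes of nerve terminals were lower in IP than in input, and 3 of the 4 non-neuronal SNAREs were higher. In striatum, 31 of the 36 genes were called lower in IP, 4 were called higher and 1 did not pass (limma with Benjamini-Hochberg adjustment over all 13470 genes tested, adjusted p under 0.05). Over all genes tested, 31.4% were called lower and 33.5% higher in that comparison, 65% in either direction. The median log2 fold change of the 36 genes was -1.54, beside 0.01 over all genes. In hippocampus, 30 genes were called lower, 4 higher and 2 did not pass, beside 35.5% lower, 30.1% higher and 65.5% in either direction over all genes, with medians of -2.30 and -0.10. Of the 32 genes other than the non-neuronal SNAREs, 31 were lower in striatal IP and 30 in hippocampal IP, and Syt11 was the 1 gene of these that was higher in both. In bulk RNA of this kind, a smaller share of cells that express a gene and less RNA per cell cannot be told apart.

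**Figure D1:**
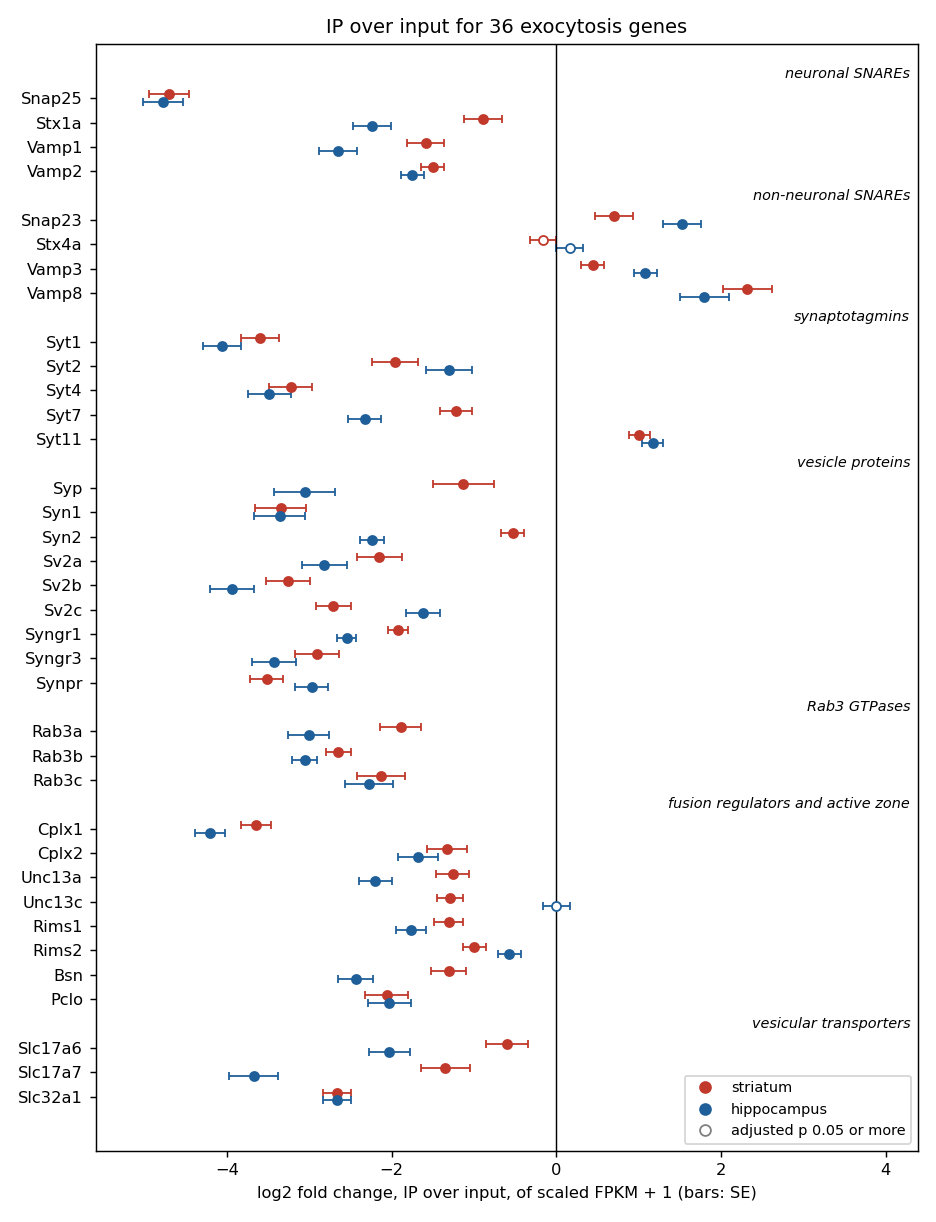
The log2 fold change of IP over input is plotted for each of the 36 genes, grouped by role, with the striatum in red above the hippocampus in blue, bars showing the SE and open points standing for an adjusted p of 0.05 or more. Most points lie left of 0, Snap25 lies farthest left in both regions, and Snap23, Vamp3, Vamp8 and Syt11 lie right of 0.

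The promoters of a few members are shown because most genes of nerve terminals fell and most non-neuronal SNAREs rose. The split was not complete, since Syt11 rose too, Stx4a did not pass in either region and Unc13c did not pass in hippocampus. Another reason is that many neuronal genes carry an RE1 element, the site of the repressor REST that keeps them off outside neurons. RefSeq promoter windows (build GRCm38.p6, 250 bases before to 50 bases after the transcript start) were found for 29 of the 36 genes, 38 windows in all. Snap25, Vamp2, Vamp3, Syt4, Syt7, Syngr3 and Rims2 had no window in that table. The core of the element, CAGCACC and GGACAG with 2 free bases between them, was searched on both strands, allowing up to 2 mismatches in the 13 fixed letters. A match was found in 3 of the 38 windows (7.89%), of Syn1, Slc17a6 and Syt2, and in 632 of all 32851 windows (1.92%). With up to 1 mismatch, Syn1 and Slc17a6 matched, among 61 windows (0.186%) over all genes. None of the 3 windows of non-neuronal SNARE genes held a match. At the 1.92% found over all windows, 3 windows are too few to tell these genes from the rest. The windows follow in the direction of the gene with the match in capitals. The match in Syn1 begins 230 bases before the start, that in Syt2 begins 122 bases before the start, and that in Slc17a6 lies on the other strand from base 35 after the start. Snap23 and Vamp8 are shown for comparison. A part of REST in the levels of these genes was not tested.
Syn1 promoter, chrX:20920869-20921168, minus strand: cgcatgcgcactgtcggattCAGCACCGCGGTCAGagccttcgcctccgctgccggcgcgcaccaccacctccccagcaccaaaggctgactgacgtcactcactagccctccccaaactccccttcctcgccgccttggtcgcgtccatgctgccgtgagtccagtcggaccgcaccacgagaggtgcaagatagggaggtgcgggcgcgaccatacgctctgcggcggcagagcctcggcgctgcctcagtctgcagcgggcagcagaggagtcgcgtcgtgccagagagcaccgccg
Slc17a6 promoter, chr7:51621580-51621879, plus strand: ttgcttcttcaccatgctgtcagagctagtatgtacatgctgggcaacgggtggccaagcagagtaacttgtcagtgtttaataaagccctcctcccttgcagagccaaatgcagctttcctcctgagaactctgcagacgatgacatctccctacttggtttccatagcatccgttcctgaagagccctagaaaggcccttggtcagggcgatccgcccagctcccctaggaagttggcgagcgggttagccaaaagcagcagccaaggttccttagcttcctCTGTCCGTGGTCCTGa
Syt2 promoter, chr1:134646362-134646661, plus strand: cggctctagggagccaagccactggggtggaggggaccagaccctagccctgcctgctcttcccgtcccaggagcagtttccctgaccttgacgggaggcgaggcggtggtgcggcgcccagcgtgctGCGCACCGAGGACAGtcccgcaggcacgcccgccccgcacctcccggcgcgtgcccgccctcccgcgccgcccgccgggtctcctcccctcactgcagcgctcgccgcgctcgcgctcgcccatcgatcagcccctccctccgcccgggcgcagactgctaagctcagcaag
Snap23 promoter, chr2:120567421-120567720, plus strand: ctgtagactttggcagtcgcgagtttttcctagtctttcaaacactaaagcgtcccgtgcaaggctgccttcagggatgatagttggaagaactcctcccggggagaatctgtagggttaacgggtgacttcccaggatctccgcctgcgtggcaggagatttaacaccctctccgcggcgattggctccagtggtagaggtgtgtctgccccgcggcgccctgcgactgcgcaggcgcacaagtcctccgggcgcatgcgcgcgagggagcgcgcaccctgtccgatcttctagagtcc
Vamp8 promoter, chr6:72390618-72390917, minus strand: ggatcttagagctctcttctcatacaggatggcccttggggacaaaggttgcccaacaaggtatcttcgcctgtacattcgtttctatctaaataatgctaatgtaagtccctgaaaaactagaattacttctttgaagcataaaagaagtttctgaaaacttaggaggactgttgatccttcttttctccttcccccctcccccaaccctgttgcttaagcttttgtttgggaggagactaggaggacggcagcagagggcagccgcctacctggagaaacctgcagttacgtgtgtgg

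Among the neuronal SNAREs, all 4 genes were lower in IP in both regions. Snap25, the neuronal target-membrane SNARE (mm10 chromosome 2, 136713453 to 136782428, plus strand), stood at 31.3, 37.3, 61.8 and 68.3 FPKM in Str.IP of animals 970, 971, 974 and 977, against 1113, 1515, 1537 and 979.8 FPKM in Str.input. It stood at 60.2, 54.7, 98.4 and 68.1 FPKM in Hip.IP, against 1903, 1830, 2006 and 1890 FPKM in Hip.input. The groups were far apart in every animal, and the log2 fold change, on the scale of log2(scaled FPKM + 1) used throughout, was -4.71 ± 0.24 (SE; limma adjusted p = 1.24e-10) in striatum and -4.78 ± 0.24 (adjusted p = 6.30e-11) in hippocampus. Of the 36 genes, Snap25 had the lowest fold change in each region.

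Vamp2, the main vesicle SNARE of forebrain synapses, also fell. It stood at 102.4, 122.4, 76.6 and 98.3 FPKM in Str.IP, against 284.6, 307.2, 279.2 and 255.9 FPKM in Str.input, and at 126.0, 115.4, 108.6 and 111.8 FPKM in Hip.IP, against 432.2, 399.0, 329.0 and 410.8 FPKM in Hip.input. The log2 fold changes were -1.5 ± 0.14 (limma adjusted p = 8.05e-08) in striatum and -1.75 ± 0.14 (adjusted p = 1.03e-08) in hippocampus, and the groups did not overlap. In the IP libraries Vamp2 was thus above Snap25 in every animal, whereas in the input libraries Snap25 was above Vamp2 in every animal, on the same per-length scale.

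Vamp1, a close relative used at fast synapses, was at 1.03 to 1.501 FPKM in Str.IP against 2.99 to 9.77 FPKM in Str.input, and at 1.001 to 1.785 FPKM in Hip.IP against 12.5 to 14.7 FPKM in Hip.input (log2 fold changes -1.59 and -2.65). Stx1a, the neuronal syntaxin, was at 0.462 to 1.86 FPKM in Str.IP against 1.75 to 3.85 FPKM in Str.input, and at 0.757 to 1.39 FPKM in Hip.IP against 6.08 to 10.8 FPKM in Hip.input. Its log2 fold change was -0.89 ± 0.23 (limma adjusted p = 0.00327) in striatum, where the highest IP library lay above the lowest input library, and -2.24 ± 0.23 in hippocampus, where the groups did not overlap. Stx1a had fewer than 20 estimated fragments in at least 1 Str.IP and 1 Str.input library.

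The non-neuronal SNAREs went the other way, except Stx4a. Snap23, the widely expressed relative of Snap25 (chromosome 2, 120567671 to 120601255, plus strand), stood at 12.6, 9.30, 5.47 and 12.2 FPKM in Str.IP, against 5.70, 5.04, 7.04 and 4.22 FPKM in Str.input. It stood at 16.1, 11.96, 10.7 and 16.7 FPKM in Hip.IP, against 5.35, 3.68, 2.98 and 4.62 FPKM in Hip.input. All 4 animals were higher in hippocampal IP, and 3 of 4 in striatal IP, where animal 974 had less in IP than in input. Fold changes on the log2 scale were 0.70 ± 0.23 (limma adjusted p = 0.0126) in striatum and 1.53 ± 0.23 (adjusted p = 1.72e-05) in hippocampus.

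Vamp3, or cellubrevin, a vesicle SNARE of recycling endosomes (chromosome 4, 151047300 to 151057963, minus strand), stood at 43.8, 46.8, 36.8 and 30.3 FPKM in Str.IP, against 26.0, 30.1, 30.8 and 26.9 FPKM in Str.input. It stood at 46.2, 50.8, 36.2 and 41.8 FPKM in Hip.IP, against 19.8, 17.6, 22.3 and 20.4 FPKM in Hip.input. Each animal had more in IP, though the striatal groups overlapped, with Str.IP of 977 just below Str.input of 974. Its log2 fold changes were 0.44 ± 0.14 (limma adjusted p = 0.0112) in striatum and 1.08 ± 0.14 (adjusted p = 3.64e-06) in hippocampus.

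The striatal calls of Snap23 and Vamp3 depended on how libraries were scaled to each other. Without scaling factors, the median over all genes moved to -0.25 in striatum, with 36.1% of calls higher in place of 51.6%, and to -0.51 in hippocampus, with 26.0% in place of 45.9%. On that scale Snap23 had a log2 fold change of 0.40 (limma adjusted p = 0.0999) and Vamp3 of 0.10 (adjusted p = 0.394) in striatum, while in hippocampus they kept 1.04 (adjusted p = 0.000314) and 0.54 (adjusted p = 0.000215). Leaving out all libraries of animal 970 also ended both striatal calls (Snap23 0.60, adjusted p = 0.0717, Vamp3 0.35, adjusted p = 0.120), as did leaving out animal 971 (Snap23 0.68, adjusted p = 0.0746, Vamp3 0.38, adjusted p = 0.0547), and without animal 977 Snap23 had 0.49 (adjusted p = 0.123).

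Vamp8, or endobrevin, a SNARE of late endosomes and secretory granules (chromosome 6, 72385223 to 72390703, minus strand), had the highest fold change of the 36 genes in both regions. It stood at 13.1, 8.14, 9.11 and 11.5 FPKM in Str.IP, against 2.75, 1.22 and 2.18 FPKM in Str.input of animals 970, 971 and 977, and was listed at 0 in Str.input of 974. It stood at 16.5, 15.2, 12.7 and 13.04 FPKM in Hip.IP, against 2.70, 4.28, 3.15 and 3.64 FPKM in Hip.input. No IP library overlapped an input library. Its log2 fold changes were 2.32 ± 0.30 (limma adjusted p = 3.86e-06) in striatum and 1.80 ± 0.30 (adjusted p = 5.35e-05) in hippocampus, and the striatal one was 1.71 (adjusted p = 1.37e-06) without Str.input of 971 and 974.

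Stx4a, the plasma-membrane syntaxin of most cells, stood at 40.6, 42.5, 35.6 and 34.9 FPKM in Str.IP, against 52.6, 42.9, 30.4 and 49.8 FPKM in Str.input. It stood at 45.7, 45.0, 35.8 and 39.4 FPKM in Hip.IP, against 40.6, 39.1, 30.8 and 37.9 FPKM in Hip.input. The groups overlapped in both regions, and neither log2 fold change passed (-0.16 ± 0.16, limma adjusted p = 0.369, in striatum, and 0.16 ± 0.16, adjusted p = 0.390, in hippocampus). Without Str.input of 974 the striatal value passed at -0.33 (adjusted p = 0.0348), and without 971 and 974 at -0.41 (adjusted p = 0.0164). With all libraries brought to the same sum, the hippocampal value turned to -0.40 (adjusted p = 0.0369).

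**Figure D2:**
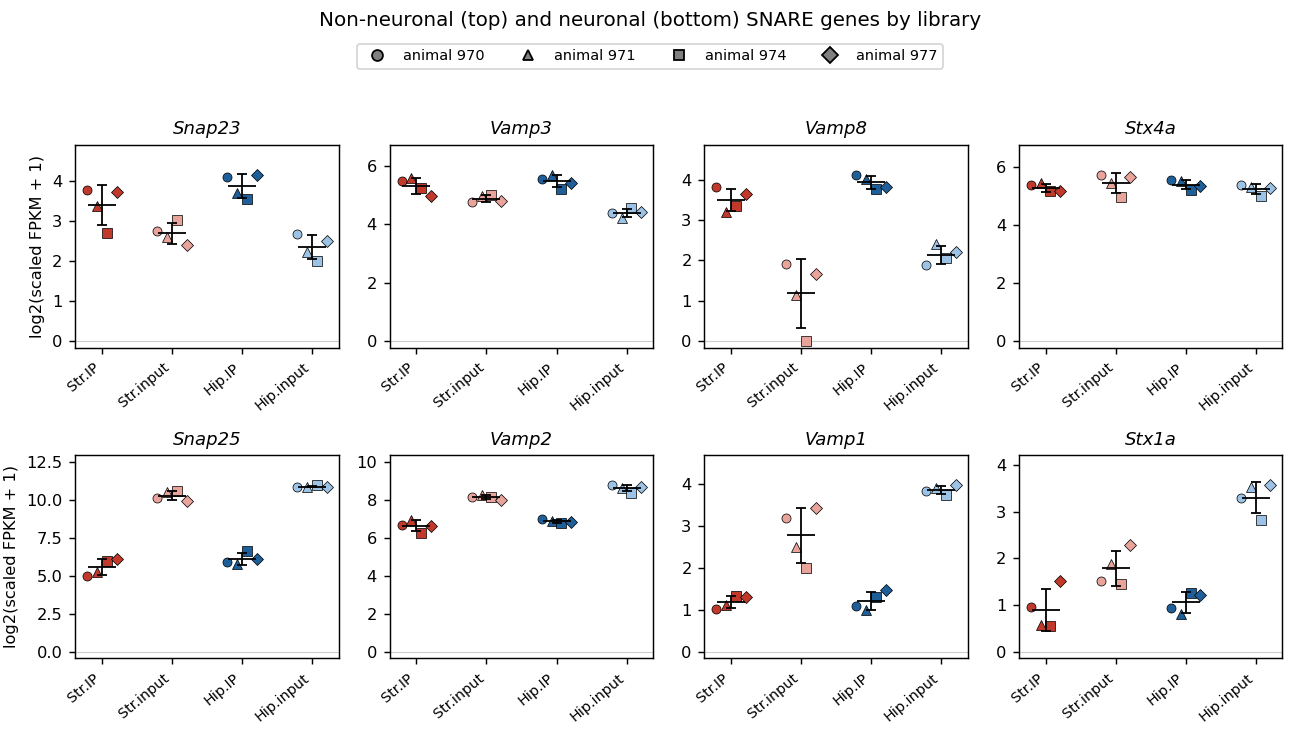
The log2(scaled FPKM + 1) of 8 SNARE genes is plotted for each library, with symbols for animals and bars for the mean and SD of 4 libraries. Snap23, Vamp3 and Vamp8 lie higher in IP than in input except for Snap23 in the striatum of animal 974, Stx4a overlaps between IP and input, and all 4 neuronal SNAREs lie lower in IP.

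Taken as ratios within a library, which no scaling between libraries can move beyond the added 1 FPKM, the non-neuronal form was higher over its neuronal relative in IP than in input in 7 of 8 tests. These ratios reuse the values tested gene by gene above. Except for Vamp8 over Vamp2, the fall of the neuronal gene was the larger part. For Stx4a over Stx1a in hippocampus the log2 fold changes were 0.16, which did not pass, and -2.24. The ratio of Snap23 to Snap25 was 0.402, 0.249, 0.0886 and 0.179 in Str.IP, against 0.00512, 0.00333, 0.00458 and 0.00430 in Str.input. It was 0.268, 0.219, 0.109 and 0.246 in Hip.IP, against 0.00281, 0.00201, 0.00149 and 0.00245 in Hip.input. Snap25 thus still exceeded Snap23 in every IP library. On the log2 scale the ratio was higher in IP by 5.42 in striatum and by 6.30 in hippocampus (exact two-sided permutation test, p = 0.0286 each, the smallest that 4 against 4 allows, adjusted p = 0.049 over the 12 ratio tests).

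The ratio of Vamp3 to Vamp2 was 0.308 to 0.481 in Str.IP against 0.0914 to 0.110 in Str.input, and 0.333 to 0.440 in Hip.IP against 0.0440 to 0.0677 in Hip.input, with log2 differences of 1.94 and 2.84. For Vamp8 over Vamp2 the log2 differences were 3.82 in striatum and 3.55 in hippocampus. These 4 exact permutation tests also gave p = 0.0286 and adjusted p = 0.049. The ratio of Stx4a to Stx1a was 18.7 to 88.8 in Str.IP against 12.9 to 28.3 in Str.input, groups that overlapped (log2 difference 0.73, exact permutation p = 0.0571, adjusted p = 0.0857). In hippocampus it was 25.7 to 59.4 in IP against 3.51 to 5.07 in input (log2 difference 2.40, exact permutation p = 0.0286, adjusted p = 0.049). Stx4a was above Stx1a in all 16 libraries. Between Str.IP and Hip.IP none of the 4 ratios differed beyond its spread (log2 differences -0.21 to 0.07, exact permutation adjusted p = 0.61 to 0.943).

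Of the 5 synaptotagmins, 4 were lower and Syt11 was higher in IP in both regions. Syt11, a synaptotagmin that does not bind calcium and limits vesicle turnover (chromosome 3, 88744700 to 88775164, minus strand), stood at 219.5, 218.5, 163.4 and 170.4 FPKM in Str.IP, against 102.8, 86.6, 84.1 and 104.7 FPKM in Str.input. It stood at 296.8, 275.3, 239.2 and 249.2 FPKM in Hip.IP, against 116.8, 114.5, 113.7 and 124.1 FPKM in Hip.input. Every IP library lay above every input library of its region, and in all 8 IP libraries Syt11 had the highest FPKM of the 36 genes. Its log2 fold changes were 1.01 ± 0.13 (limma adjusted p = 3.37e-06) in striatum and 1.17 ± 0.13 (adjusted p = 5.78e-07) in hippocampus.

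Syt1, the fast calcium sensor of forebrain synapses, stood at 2.09, 2.91, 6.31 and 5.08 FPKM in Str.IP, against 48.3, 60.4, 74.4 and 50.4 FPKM in Str.input, and at 3.45 to 6.95 FPKM in Hip.IP, against 93.7 to 102.1 FPKM in Hip.input (log2 fold changes -3.60 ± 0.23 and -4.06 ± 0.23). Syt4, a synaptotagmin reported on secretory vesicles of neurons and astrocytes, stood at 3.24, 3.93, 10.4 and 7.11 FPKM in Str.IP, against 52.8, 67.9, 79.7 and 49.7 FPKM in Str.input, and at 2.18 to 3.87 FPKM in Hip.IP, against 39.1 to 47.4 FPKM in Hip.input. Its log2 fold changes of -3.23 ± 0.26 (limma adjusted p = 1.38e-08 in striatum) and -3.49 ± 0.26 were among the lower ones of the set. Syt7, a slow calcium sensor also found on lysosomes, had log2 fold changes of -1.22 ± 0.20 in striatum and -2.33 ± 0.20 in hippocampus. Syt2, the fast sensor of hindbrain synapses, had -1.96 ± 0.28 and -1.31 ± 0.28, with fewer than 20 estimated fragments in at least 1 Hip.IP library.

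All 9 vesicle protein genes were lower in IP in both regions, with a median log2 fold change of -2.71 in striatum and -2.97 in hippocampus. Synapsin 1 (Syn1), which tethers vesicles to actin, stood at 7.05, 7.55, 9.22 and 9.71 FPKM in Str.IP, against 60.4, 114.8, 218.3 and 50.9 FPKM in Str.input. It stood at 8.11 to 11.4 FPKM in Hip.IP, against 100.1 to 122.4 FPKM in Hip.input. The striatal IP libraries were close together and the striatal input libraries were widely spread, without overlap between the 2. The log2 fold changes were -3.35 ± 0.31 and -3.36 ± 0.31, and the striatal one was -2.60 without Str.input of 971 and 974.

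Synaptophysin (Syp), the abundant vesicle membrane protein, varied in the opposite direction between the same Str.input libraries. It stood at 32.2, 43.0, 30.1 and 34.0 FPKM in Str.IP, against 129.5, 58.0, 27.9 and 161.3 FPKM in Str.input, so that animal 974 had less in input than in IP. It stood at 47.4 to 54.6 FPKM in Hip.IP, against 382.3 to 459.2 FPKM in Hip.input. The log2 fold changes were -1.13 ± 0.37 (limma adjusted p = 0.013) in striatum and -3.06 ± 0.37 in hippocampus, and without Str.input of 971 and 974 the striatal one was -2.04 (adjusted p = 2.76e-08). Without all libraries of animal 970 it was -0.85 (adjusted p = 0.121), and without those of 977 it was -0.76 (adjusted p = 0.105). Syp shares 875 exon bases with the antisense gene Gm14703.

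Synapsin 2 (Syn2, chromosome 6, 115134902 to 115282006, plus strand) stood at 8.45, 7.83, 8.15 and 7.26 FPKM in Str.IP, against 13.7, 10.8, 8.35 and 15.6 FPKM in Str.input. It stood at 9.08, 8.76, 10.4 and 8.81 FPKM in Hip.IP, against 47.8, 43.2, 50.2 and 49.0 FPKM in Hip.input. The 8 IP libraries lay close together, and the inputs set the regions apart. The log2 fold changes were -0.53 ± 0.14 (limma adjusted p = 0.00434; -0.36, adjusted p = 0.0650, without animal 977) in striatum and -2.24 ± 0.14 in hippocampus. Syn2 has the gene Timp4 on the other strand within it, with 90 shared exon bases, and Timp4 stood at 63.6 to 107.8 FPKM in Str.IP against 9.48 to 14.2 FPKM in Str.input. Its part in the level of Syn2 was not tested.

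The SV2 transporters of the vesicle membrane were lower in IP as well. Sv2b had log2 fold changes of -3.26 ± 0.27 in striatum and -3.94 ± 0.27 in hippocampus, Sv2a of -2.15 ± 0.27 and -2.82 ± 0.27, and Sv2c of -2.71 ± 0.21 and -1.62 ± 0.21. Without Str.input of 971 and 974, Sv2a had -2.77 in striatum. Synaptogyrin 3 (Syngr3) had -2.91 and -3.43, synaptogyrin 1 (Syngr1) -1.92 and -2.55, and synaptoporin (Synpr) -3.52 and -2.97, each with an SE of 0.12 to 0.27. Synaptoporin was at 0.899 to 1.92 FPKM in Str.IP against 19.9 to 39.1 FPKM in Str.input, and at 0.456 to 0.943 FPKM in Hip.IP against 10.5 to 15.6 FPKM in Hip.input.

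The 3 Rab3 GTPases were lower in IP in both regions. Rab3a, the main vesicle Rab of nerve terminals, had log2 fold changes of -1.89 ± 0.25 in striatum and -3.01 ± 0.25 in hippocampus, Rab3b of -2.65 ± 0.15 and -3.06 ± 0.15, and Rab3c of -2.13 ± 0.29 and -2.28 ± 0.29. Rab3c remained the highest of the 3 in IP, at 11.4, 17.2, 32.4 and 36.3 FPKM in Str.IP against 86.8, 111.0, 123.6 and 83.9 FPKM in Str.input, and at 15.9 to 33.0 FPKM in Hip.IP against 112.0 to 130.2 FPKM in Hip.input. In both regions the IP libraries of 974 and 977 had more Rab3c than those of 970 and 971. This was not particular to Rab3c. The median of the neuron markers as a percent of input, given below, was also higher in 974 and 977 in both regions.

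Of the 8 fusion regulators and active zone genes, all were lower in striatal IP, and 7 were lower in hippocampal IP. Among the complexins, Cplx1 stood at 6.60, 5.83, 10.7 and 9.99 FPKM in Str.IP against 123.4, 123.9, 84.1 and 124.9 FPKM in Str.input (log2 fold change -3.65 ± 0.18), and at 5.94 to 9.15 FPKM in Hip.IP against 151.9 to 156.1 FPKM in Hip.input (-4.21 ± 0.18). Cplx2 stood at 60.2, 83.3, 156.4 and 126.7 FPKM in Str.IP against 239.3, 243.2, 302.6 and 234.7 FPKM in Str.input (-1.33 ± 0.24), and at 55.2 to 102.1 FPKM in Hip.IP against 239.9 to 251.6 FPKM in Hip.input (-1.68 ± 0.24). Every IP library lay below every input library of its region for both genes. The scaffolds Bsn (-1.31 and -2.44) and Pclo (-2.06 and -2.03), the priming factor Unc13a (-1.26 and -2.20) and the RIM scaffold Rims1 (-1.31 and -1.77) all passed in striatum and in hippocampus. Rims2, another RIM, had -1.0 ± 0.14 in striatum and -0.57 ± 0.14 (limma adjusted p = 0.00199) in hippocampus.

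Unc13c, the Munc13 form known mainly from cerebellar granule cells (chromosome 9, 73479422 to 73968966, minus strand), was the 1 gene outside the non-neuronal SNAREs and Syt11 that was not lower in hippocampal IP. It stood at 2.12, 2.57, 2.97 and 2.96 FPKM in Hip.IP, against 2.172, 2.31, 3.33 and 2.85 FPKM in Hip.input, 2 animals being higher and 2 lower (log2 fold change -0.00 ± 0.16). In striatum it stood at 15.04, 19.1, 25.5 and 22.6 FPKM in IP, against 48.3, 54.6, 59.4 and 42.4 FPKM in input, without overlap (-1.29 ± 0.16, limma adjusted p = 2.64e-06).

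The 3 vesicular transporters, which load glutamate (Slc17a6, Slc17a7) or GABA and glycine (Slc32a1) into vesicles, were lower in IP in both regions. Slc17a7, or VGLUT1, stood at 0.143, 0.158, 1.51 and 0.562 FPKM in Str.IP, against 4.05, 2.83, 1.15 and 4.22 FPKM in Str.input (log2 fold change -1.35 ± 0.30, limma adjusted p = 0.00101). Animal 974 had more of it in striatal IP than in striatal input, against the other 3. In hippocampus it stood at 9.24, 9.97, 19.1 and 16.6 FPKM in IP, against 186.5, 192.5, 141.8 and 203.9 FPKM in input (-3.68 ± 0.30). Slc32a1, or VGAT, stood at 1.24, 2.13, 2.16 and 2.03 FPKM in Str.IP against 19.5, 15.4, 12.5 and 23.7 FPKM in Str.input (-2.67 ± 0.17), and at 0.0868 to 0.298 FPKM in Hip.IP against 5.26 to 7.02 FPKM in Hip.input (-2.66 ± 0.17). Slc17a6, or VGLUT2, was at 0.0139 to 0.127 FPKM in Str.IP against 0.111 to 2.10 FPKM in Str.input, with fewer than 20 estimated fragments in libraries of both groups. Its striatal log2 fold change of -0.60 ± 0.25 (adjusted p = 0.0453) lost its call when any 1 of 11 libraries was left out, and was -0.28 (adjusted p = 0.172) without Str.input of 977. In hippocampus it was -2.03 ± 0.25.

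Since neuron markers were not at 0 in the IP libraries, each gene's level in IP was also expressed as a percent of the level in the same animal's input and set beside the same percent for the 13 neuron markers. The median over the neuron markers was 9.75, 13.1, 31.8 and 17.2% in the striatum of animals 970, 971, 974 and 977, and 6.47, 6.22, 12.5 and 9.5% in the hippocampus. The markers themselves ran from 5.80% (Nefm) to 90.4% (Tubb3) in striatum and from 5.13% (Stmn2) to 50.1% (Map2) in hippocampus, where the next below Map2 was Thy1 at 19.1%. The 32 genes other than the non-neuronal SNAREs had a median of 24.1% in striatum (4.07 to 206%) and 12.5% in hippocampus (3.01 to 226%). Of all 36 genes, the non-neuronal SNAREs among them, 13 in striatum and 22 in hippocampus lay above the marker median of the same animal in all 4 animals. The same count over all genes was not made. The median log2 fold change of IP over input over all genes was 0.01 in striatum and -0.10 in hippocampus. IP levels were thus close to input for a typical gene, and these counts do not set the 36 genes apart. In striatum the averages over animals depend on animals 971 and 974. From animals 970 and 977 alone, the marker medians averaged 13.5%, the markers ran from 6.68% (Nefm) to 78.4% (Elavl4) with Tubb3 at 39.5%, and the 32 genes had a median of 15.1%. In both of these animals 20 of the 36 genes lay above the marker median. That is a looser condition than in all 4 animals, so this count cannot be set against the 13.

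The non-neuronal SNAREs and Syt11 lay at the top of that scale. Vamp8 was at 556 ± 99.5% (SD, n = 3 animals with a level above 0 in input) in striatum and 432 ± 121% (n = 4) in hippocampus, Snap23 at 193 ± 88.2% and 337 ± 29.2%, Syt11 at 206 ± 37.5% and 226 ± 25.0%, and Vamp3 at 139 ± 27.1% and 222 ± 53.2%. Stx4a was at 90.9 ± 21.4% and 112 ± 5.44%. At the other end, Snap25 was at 4.07 ± 2.05% and 3.67 ± 0.866%, below the marker median in every animal of both regions. Slc32a1 was lowest in hippocampus, at 3.01 ± 2.05%. In between, Vamp2 was at 35.4 ± 5.55% in striatum and 29.6 ± 2.45% in hippocampus, Cplx2 at 41.3 ± 13.9% and 31.9 ± 9.04%, and Rims2 at 45.4 ± 14.5% and 58.8 ± 4.68%. In hippocampus Vamp2, Cplx2 and Rims2 were above every neuron marker but Map2, and Rims2 was above Map2 too. In striatum they lay inside the range of the markers. From animals 970 and 977 alone, the striatal means were 501% for Vamp8, 255% for Snap23, 188% for Syt11, 141% for Vamp3, 73.7% for Stx4a, 4.89% for Snap25, 37.2% for Vamp2, 39.6% for Cplx2 and 55.3% for Rims2. The part of RNA from neurons in these IP levels was not tested.

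**Figure D3:**
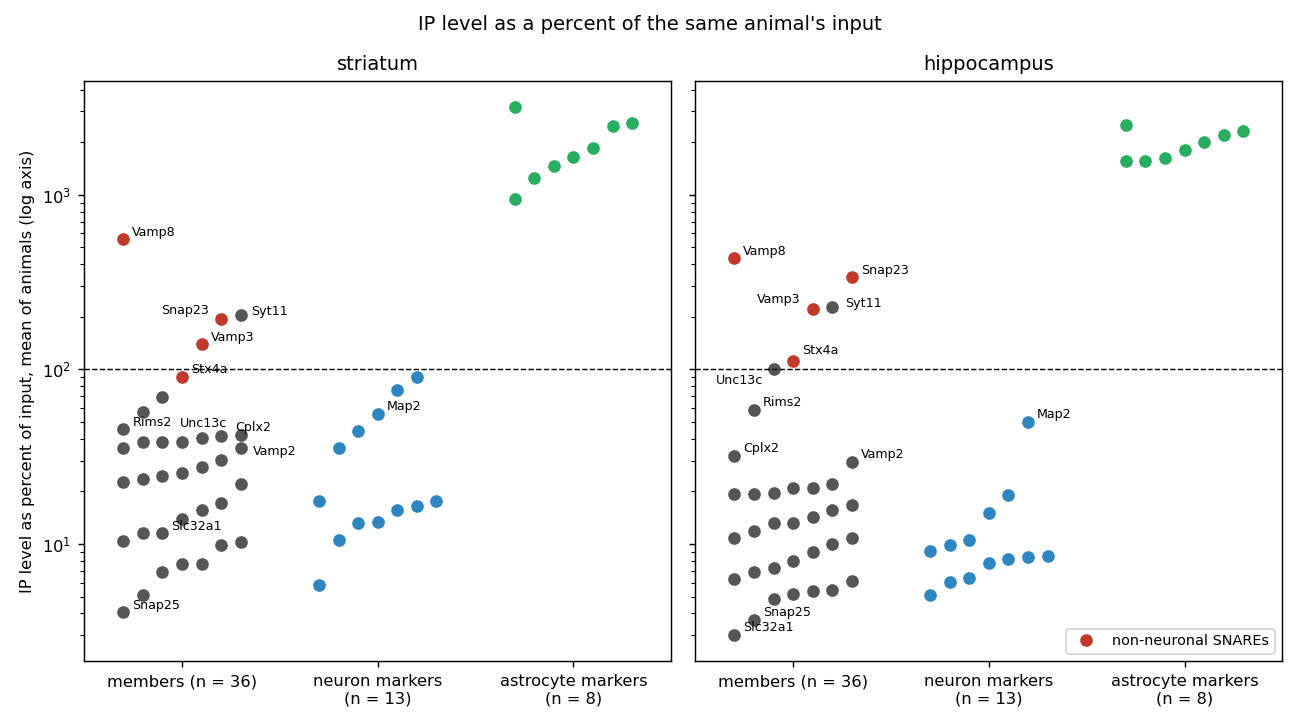
Each point is the IP level of 1 gene as a percent of the same animal's input, averaged over animals, on a log axis, for the 36 genes, 13 neuron markers and 8 astrocyte markers. Vamp8, Snap23, Vamp3 and Syt11 lie above 100% in both regions and below the astrocyte markers, and most other members share the range of the neuron markers.

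The next question was which genes of the set differed between the astrocyte ribosome fractions of the 2 regions. Between Str.IP and Hip.IP, 4 genes were called higher in striatum, 2 were called lower and 30 did not pass (limma, all 13470 genes adjusted together), where 7.18% of all genes were called higher and 5.38% lower. The median log2 fold change of the set was -0.12, beside -0.02 over all genes. The 4 higher genes were Unc13c, Sv2c, Slc32a1 and Rims2, and the 2 lower were Slc17a7 and Syt11. Between Str.input and Hip.input, 7 genes were called higher, 16 lower and 13 did not pass, where 14.5% of all genes were higher and 21.8% lower, with medians of -0.46 for the set and -0.07 over all genes. These comparisons share libraries with those of IP against input.

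Unc13c differed most upward between regions in both fractions, at 15.04 to 25.5 FPKM in Str.IP against 2.12 to 2.97 FPKM in Hip.IP, and at 42.4 to 59.4 FPKM in Str.input against 2.172 to 3.33 FPKM in Hip.input. The log2 fold change of striatum over hippocampus was 2.54 ± 0.16 (limma adjusted p = 2.44e-08) in IP and 3.83 ± 0.16 (adjusted p = 5.22e-11) in input. Sv2c, the SV2 form of the basal ganglia (chromosome 13, 95954594 to 96132577, minus strand), stood at 4.10, 3.62, 8.29 and 6.78 FPKM in Str.IP, against 0.473, 0.941, 1.20 and 0.784 FPKM in Hip.IP (1.81 ± 0.21, adjusted p = 2.13e-05). It stood at 41.2, 41.6, 39.3 and 42.6 FPKM in Str.input, against 6.32, 5.04, 4.58 and 3.09 FPKM in Hip.input (2.90 ± 0.21, adjusted p = 2.24e-08). No striatal library overlapped a hippocampal one for either gene in either fraction.

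Of the vesicular transporters, Slc32a1, the GABA transporter, was higher in striatum by a log2 fold change of 1.28 ± 0.17 in IP (limma adjusted p = 8.57e-05) and 1.29 ± 0.17 in input (adjusted p = 2.10e-05). These values are pulled together by the added 1 FPKM, since Slc32a1 averaged 1.89 FPKM in Str.IP against 0.185 FPKM in Hip.IP, and 17.7 FPKM in Str.input against 6.49 FPKM in Hip.input. With a pseudocount of 0.1 FPKM they were 2.85 in IP and 1.41 in input, and the region difference of IP over input was 1.44 (adjusted p = 0.0240) in place of -0.02. Slc17a7, a glutamate transporter, was lower in striatum, with log2 fold changes of -3.23 ± 0.30 in IP (adjusted p = 2.10e-06) and -5.56 ± 0.30 in input (adjusted p = 8.27e-10), the lowest fold changes of the set in both fractions. Slc17a6 was lower in striatum in input (-1.68 ± 0.25, adjusted p = 6.91e-05), and in IP its value was -0.25 ± 0.25 (adjusted p = 0.604), at 0.0139 to 0.127 FPKM in Str.IP against 0.208 to 0.295 FPKM in Hip.IP. Slc17a8, the third vesicular glutamate transporter and not one of the 36 genes, was higher in striatal input (1.49 ± 0.19, adjusted p = 1.32e-05) and had 0.20 (adjusted p = 0.584) between IPs. Of 6 markers of striatal projection neurons, which use GABA, 5 were called higher in Str.IP than in Hip.IP, by log2 fold changes of 2.12 (Adora2a) to 4.92 (Penk), with Tac1 at 0 in at least 1 Hip.IP library. The other, Ppp1r1b, did not pass between IPs (0.50, adjusted p = 0.382) and was higher in Hip.IP than in Hip.input (2.64). Summed, the 6 were at 160.2 to 258.1 FPKM in Str.IP against 67.1 to 83.4 FPKM in Hip.IP. Of 6 markers of hippocampal principal neurons, which use glutamate, 4 were called lower in Str.IP than in Hip.IP (Neurod6 -2.38, Neurod2 -2.21, Prox1 -1.53 and C1ql2 -0.58), with Neurod6 and C1ql2 at 0 in at least 1 Str.IP library. Bcl11b of that list was higher in Str.IP (0.82), and Wfs1 did not pass (0.11, adjusted p = 0.749). Summed, these 6 were at 30.9 to 42.7 FPKM in Str.IP against 50.8 to 56.3 FPKM in Hip.IP. The part of these cells in the regional differences between IPs was not tested.

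Syt11 and Rims2 were the smaller calls between IPs. Syt11 was lower in Str.IP at 163.4 to 219.5 FPKM, against 239.2 to 296.8 FPKM in Hip.IP, without overlap (log2 fold change -0.46 ± 0.13, limma adjusted p = 0.0242). Its call was lost without scaling factors (-0.30, adjusted p = 0.146) and when 1 library of Hip.IP 970, Hip.IP 971, Str.IP 974 or Str.IP 977 was left out (up to adjusted p = 0.0915, with -0.41 without Hip.IP of 970). Of the 8 astrocyte markers, 5 were also called lower in Str.IP than in Hip.IP and none higher, with a median of -0.61. Of 7 oligodendrocyte markers, 5 were called higher and none lower, with a median of 1.21. Whether the change of Syt11 went beyond such shifts between the IPs was not tested. Rims2 was higher at 2.98 to 4.05 FPKM in Str.IP, against 2.11 to 2.44 FPKM in Hip.IP (0.48 ± 0.14, adjusted p = 0.0322), and lost its call without 1 library of Hip.IP 970, 971 or 974 or of Str.IP 974 or 977 (0.43, adjusted p = 0.106, without Str.IP of 977). With the animal as a block in the fit, 3 further genes passed between IPs. These were Syt4 (0.73, adjusted p = 0.0260 in place of 0.0773), Sv2b (-0.73, adjusted p = 0.0250 in place of 0.0959) and Synpr (0.47, adjusted p = 0.0258 in place of 0.154). Str.input of 971 and 974 is not part of this comparison, but its spread enters the estimate that all groups share. Without those libraries 4 further genes passed between IPs and no call was lost, so genes that did not pass in the main fit are not shown to be alike. None of the 8 SNARE genes passed between IPs in the main fit, with log2 fold changes of -0.53 to -0.03.

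In whole tissue, the genes lower in striatum included 3 of 4 neuronal SNAREs and 5 of 9 vesicle proteins, beside 21.8% of all genes. Of the 13 neuron markers, none of them in the set, 7 were also called lower in Str.input and none higher, with a median of -0.62. The lower values were thus not limited to the set, and the part of neuron RNA in the 2 inputs was not tested. Syp had a log2 fold change of striatum over hippocampus of -2.50 ± 0.37 (limma adjusted p = 5.67e-05; -1.59 without Str.input of 971 and 974), Syn2 of -1.92 ± 0.14, Stx1a of -1.51 ± 0.23, Sv2b of -1.41 ± 0.27, Rab3a of -1.29 ± 0.25 and Vamp1 of -1.08 ± 0.23. Higher in striatal input were Unc13c, Sv2c, Slc32a1, Syt2 (1.13 ± 0.28, adjusted p = 0.00456), Synpr (1.03 ± 0.20), Rims2 (0.91 ± 0.14) and Vamp3 (0.49 ± 0.14). Synpr stood at 20.4, 25.4, 39.1 and 19.9 FPKM in Str.input, against 11.4, 10.5, 15.6 and 10.6 FPKM in Hip.input.

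Some of these calls rested on the 2 Str.input libraries that stood apart. Without them, 4 of the 23 calls between inputs were lost, those of Vamp3 (0.39, limma adjusted p = 0.106), Vamp8 (-0.35, adjusted p = 0.187, in place of -0.96), Sv2a (-0.26, adjusted p = 0.388, in place of -0.88) and Unc13a (-0.45, adjusted p = 0.181, in place of -0.60). Snap25 (-0.87, adjusted p = 0.0337), Stx4a (0.46, adjusted p = 0.0208) and Syn1 (-1.0, adjusted p = 0.000144) passed in their place. With the animal as a block, Snap25 (-0.59, adjusted p = 0.0342), Syt11 (-0.31, adjusted p = 0.0404) and Rims1 (-0.44, adjusted p = 0.0252) passed as well. Removing 1 library also ended the calls of Vamp8 (-0.87, adjusted p = 0.0583, without Hip.input of 971), Sv2a (up to 0.0703, without Str.input of 971, Str.input of 974 or Hip.input of 977) and Unc13a (up to 0.0900, without Str.input of 974 or Hip.input of 970, 971 or 977).

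**Figure D4:**
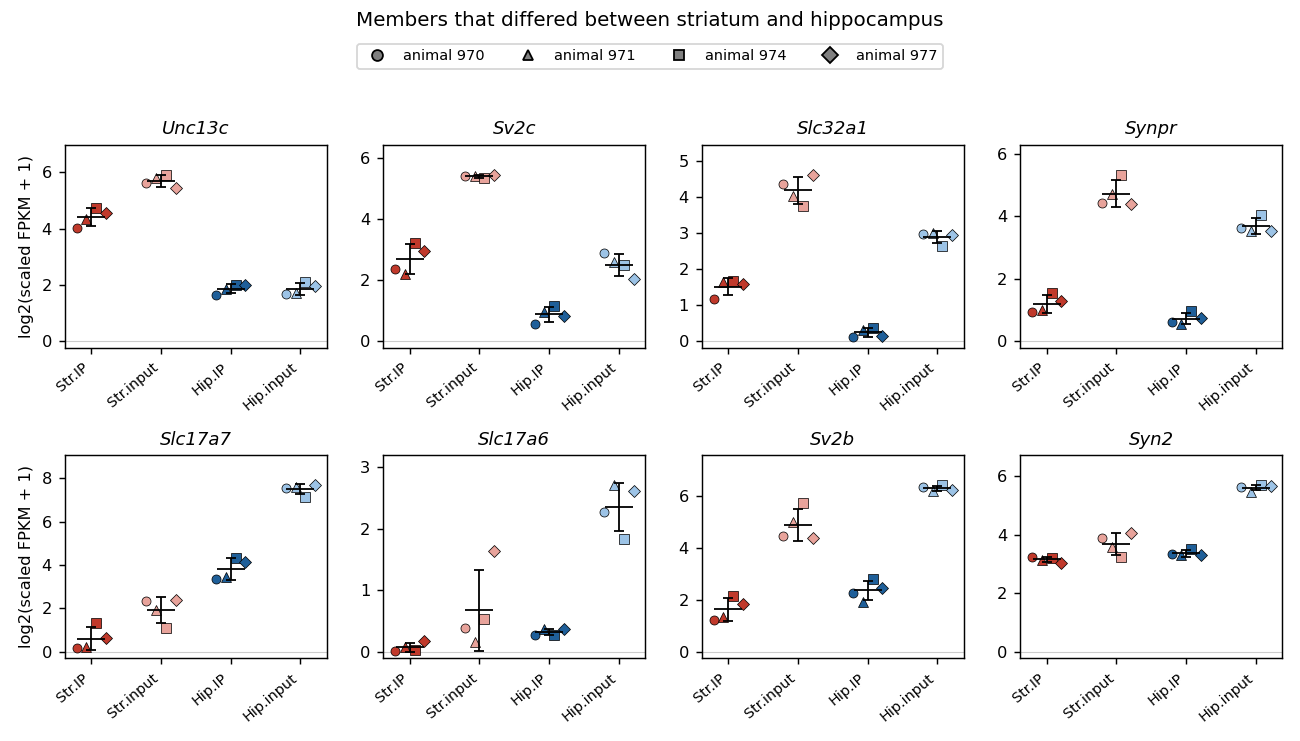
The log2(scaled FPKM + 1) of 8 genes is plotted for each library, with symbols for animals and bars for the mean and SD of 4 libraries. Unc13c, Sv2c, Slc32a1 and Synpr (top) lie higher in Str.input than in Hip.input, and Slc17a7, Slc17a6, Sv2b and Syn2 (bottom) lie lower, while in the 8 IP libraries Syn2 lies within 7.26 to 10.4 FPKM.

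The size of the IP over input change was then compared between regions, as the difference of striatum minus hippocampus. It passed in 14 of the 36 genes, 11 with a higher and 3 with a lower value in striatum (limma, adjusted p under 0.05), where 8.47% of all genes were higher and 5.33% lower. The median difference was 0.43 for the set and 0.09 over all genes. The 11 genes were Slc17a7 (2.33 ± 0.43, adjusted p = 0.00152), Syp (1.93), Syn2 (1.72 ± 0.20, adjusted p = 3.03e-05), Slc17a6 (1.43), Stx1a (1.35), Bsn (1.13), Rab3a (1.12), Syt7 (1.11), Vamp1 (1.05), Unc13a (0.94) and Syngr1 (0.63). All 11 were called lower in IP in both regions. For Slc17a6 and Slc17a7, which stood near or under 1 FPKM in Str.IP, the added 1 FPKM bears on the value. As a percent of the same animal's input, Slc17a6 was at 4.55, 48.6, 3.53 and 6.06% in striatal IP of animals 970, 971, 974 and 977, against 5.48, 5.34, 8.16 and 5.67% in hippocampal IP, so that 2 of 4 animals were lower in striatum. Slc17a7 was at 3.54, 5.6, 131 and 13.3% in striatal IP, against 4.96, 5.18, 13.5 and 8.16% in hippocampal IP, with animal 970 lower in striatum and animal 974 far above the others. The 3 genes with a lower value were Unc13c (-1.29 ± 0.23, adjusted p = 0.00103), Sv2c (-1.09 ± 0.30, adjusted p = 0.0230) and Vamp3 (-0.64 ± 0.20, adjusted p = 0.0412). Sv2c, at 0.473 to 1.20 FPKM in Hip.IP, was at 9.94, 8.70, 21.1 and 15.9% of input in striatum, against 7.50, 18.7, 26.2 and 25.4% in hippocampus, with animal 970 the other way. The inputs enter both this difference and the comparison of inputs, where Slc17a7 had -5.56, Syp -2.50, Syn2 -1.92, Unc13c 3.83 and Sv2c 2.90. Snap23 had -0.82 ± 0.32 (adjusted p = 0.102), so its smaller striatal change was not shown to differ from the hippocampal one. The median of the neuron markers, as a percent of input, was also higher in striatum (18.0 ± 9.74%, or 13.5% from animals 970 and 977 alone) than in hippocampus (8.68 ± 2.96%; SD, n = 4 each), and of the 13 neuron markers 5 passed with a higher striatal value and none with a lower one.

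Of these 14 calls, Syn2 and Unc13c held in every alternative setting in which the difference was fitted. Those of Vamp1, Vamp3, Rab3a and Unc13a were each lost when any 1 of 10 to 12 libraries was left out (up to adjusted p = 0.0911 for Vamp1, 0.0939 for Vamp3, 0.0891 for Rab3a and 0.0806 for Unc13a). Sv2c was lost without Hip.IP of 971 or Hip.input of 977 (-0.94, adjusted p = 0.0531), and Syngr1 without Hip.IP of 971 or Hip.input of 970 or 977 (up to adjusted p = 0.0592). Without Str.input of 971 and 974, 6 calls were lost (Vamp1, Vamp3, Rab3a, Unc13a, Syngr1 and Slc17a6), and Syp kept 1.02 (adjusted p = 0.00219). In their place Syt2 (-1.21, adjusted p = 0.00263), Stx4a (-0.57, adjusted p = 0.0466), Syn1 (0.76, adjusted p = 0.0165) and Sv2b (1.15, adjusted p = 0.0262) passed. With a pseudocount of 0.1 FPKM in place of 1, 4 genes in place of 11 had a higher striatal value, Syp, Syn2, Bsn and Slc32a1. Slc17a7 (1.28, adjusted p = 0.275), Slc17a6 (1.64, adjusted p = 0.189), Stx1a (1.45, adjusted p = 0.0940), Vamp1 (1.17, adjusted p = 0.0886), Rab3a (1.13, adjusted p = 0.0698), Syngr1 (0.61, adjusted p = 0.0608), Unc13a (1.03, adjusted p = 0.0571) and Syt7 (1.16, adjusted p = 0.0528) lost their calls on that scale, as did Sv2c (-0.54, adjusted p = 0.399).

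The genes of the set varied more between animals in striatum than in hippocampus. The median SD over the 36 genes, on the log2 scale, was 0.30 in Str.IP, 0.33 in Str.input, 0.21 in Hip.IP and 0.13 in Hip.input. Over all genes tested the medians were 0.22 in Str.IP, 0.31 in Str.input, 0.16 in Hip.IP and 0.13 in Hip.input, so the wider striatal spread was not limited to the set. An SD above 0.5 was found for 7 of the 36 genes in Str.IP (19.4%, beside 7.75% of all genes) and 11 in Str.input (30.6%, beside 21.4%), and for none in either hippocampal group (4.18% of all genes in Hip.IP and 2.94% in Hip.input). Between Str.input of 970 and 977 alone, the median SD was 0.10 for the set and 0.12 over all genes, and 2 of the 36 genes (5.56%, beside 4.59% of all genes) were above 0.5. In Str.input, Syp was the most variable (SD 1.14), at 27.9 FPKM in animal 974 and 161.3 FPKM in animal 977. In the same libraries Syn1 was highest in 974, at 218.3 FPKM, and lowest in 977, at 50.9 FPKM, and Sv2b was highest in 974 (52.3 FPKM). Animal 974 also had the lowest estimated depth in Str.input, 4.15 in units of 1e6 fragments. In Str.IP, Rab3c was the most variable (SD 0.75), at 11.4 to 36.3 FPKM.

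**Figure D5:**
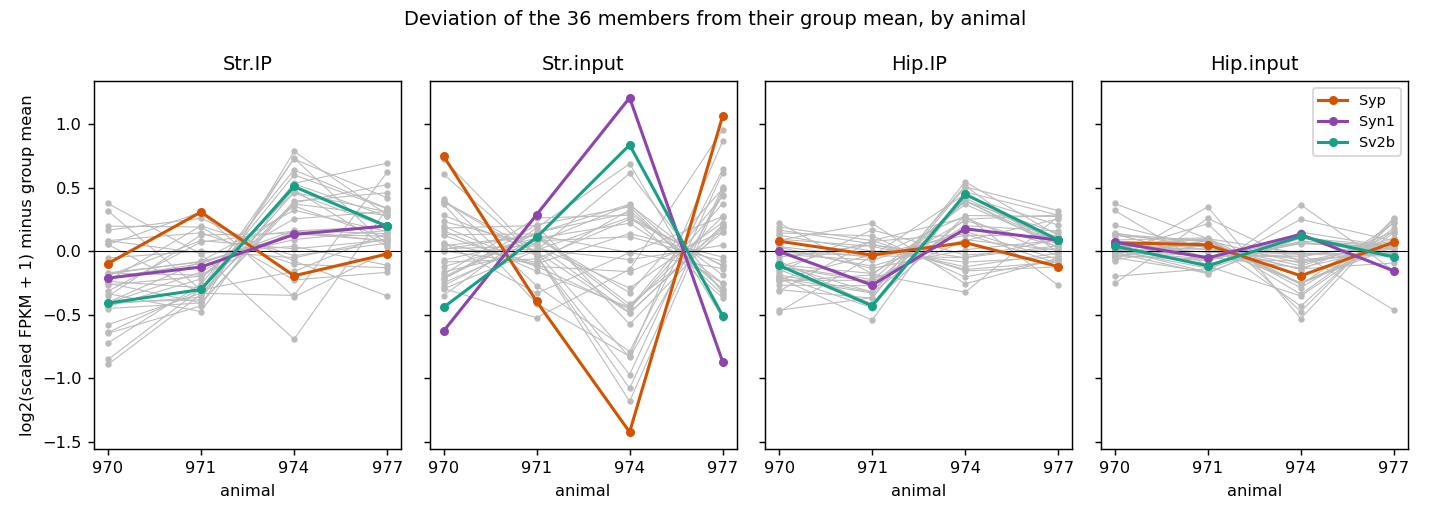
Each line follows 1 of the 36 genes through the 4 animals of a group, as the difference of log2(scaled FPKM + 1) from the group mean, with Syp, Syn1 and Sv2b in colour. The lines fan out most in Str.input, where Syp is lowest and Syn1 and Sv2b are highest in animal 974, and least in Hip.input. The animals have no order.

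A wider list of 90 other exocytosis genes, 82 of which passed the filter, was read beside the set. In striatum 18 were called higher and 47 lower in IP than in input, beside 33.5% higher and 31.4% lower over all genes, with medians of -0.68 for the list and 0.01 over all genes (limma adjusted p under 0.05). In hippocampus 13 were called higher and 53 lower, beside 30.1% and 35.5% over all genes, with medians of -0.95 and -0.10. Without Str.input of 971 and 974, 81 of the genes passed the filter, and 18 were higher and 48 lower in striatal IP. Higher in IP in both regions were Stxbp3a, a Munc18 form that partners with Stx4a (log2 fold change 1.64 ± 0.14 in striatum and 2.08 ± 0.14 in hippocampus), the secretory carrier membrane protein Scamp2 (1.87 ± 0.24 and 1.64 ± 0.24) and the widely expressed dynamin Dnm2 (1.37 ± 0.11 and 1.48 ± 0.11). Unc13b, the Munc13 form found also outside neurons, was higher in striatal IP than in input (1.38 ± 0.17). In hippocampus it did not pass (0.35, limma adjusted p = 0.0843). Its value of IP over input was higher in striatum (difference 1.04 ± 0.24, adjusted p = 0.00833). Between Str.IP and Hip.IP, however, Unc13b did not pass (0.04, adjusted p = 0.925). It was lower in Str.input than in Hip.input (adjusted p = 0.000251), and the inputs enter the difference. Among the lowest in both regions were the SNARE-recycling factor Napb (-3.70 ± 0.19 and -3.93 ± 0.19) and the Rab3 effector Rph3a (-3.36 ± 0.25 and -3.43 ± 0.25), and the neuronal dynamin Dnm1 had -3.40 ± 0.28 in hippocampus.

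Between Str.IP and Hip.IP, 5 of these 82 genes were called higher and 12 lower, beside 7.18% and 5.38% over all genes, with medians of 0.01 and -0.02. Stxbp2, a Munc18 form of non-neuronal cells, was higher (1.43 ± 0.25, limma adjusted p = 0.000828), and so was Syt14 (1.37 ± 0.21), while Syt17 (-1.65 ± 0.20) and the syntaxin-binding Stxbp6 (-1.11 ± 0.13) were lower. Against input, Stxbp2 was lower in IP in both regions (-0.84 in striatum and -1.51 in hippocampus). Syt14 was lower in hippocampal IP (-1.34) and did not pass in striatal IP (-0.29, limma adjusted p = 0.250). In input, 8 of the 82 genes were called higher and 34 lower in striatum, beside 14.5% and 21.8% over all genes, led by Syt6 (3.35 ± 0.17) and by Syt17 (-3.92 ± 0.20). Without Str.input of 971 and 974, 5 of 81 were higher and 28 lower, beside 9.24% and 16.1% over all genes. In the difference of IP over input, 14 had a higher and 3 a lower striatal value, beside 8.47% and 5.33% over all genes, with medians of 0.36 for the list and 0.09 over all genes. Without those 2 libraries 12 were higher and 3 lower, and with a pseudocount of 0.1 FPKM 9 were higher and none of the 3 lower ones (Slc17a8, Syt6 and Scamp1) passed.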

How the data were processed

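The 16 deposited tables, 1 per library, hold FPKM values that the authors computed per gene. The unit is named for the tables in the series record, and low values moved in steps of whole fragments. Base calls were made with bcl2fastq 2.17, alignment used STAR, counting used HTSeq and the build was mm10, per the submitters' processing notes, and versions of STAR and HTSeq are not given in the sources used here. Per the labels' protocols, paired-end libraries were made from 100 ng of RNA with NuGEN's Ovation System V2. Each table lists 24060 labels, of which 27 look like dates and 2 are repeated, and 22776 (94.7%) were found in GENCODE vM21, the source of coordinates. Sums of FPKM ran from 216830.8 to 246166.1. Depth was estimated from the steps and gene lengths and differed 5.45-fold between libraries, so its absolute size rests on those lengths. It limits Stx1a, Syt2, Vamp8, Slc17a6, Slc17a7 and Slc32a1, which had fewer than 20 estimated fragments in some libraries. The kit does not mark strand.

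FPKM were divided by a trimmed-mean factor (0.746 to 1.303; 30% of log ratios and 5% of levels trimmed at each end), and limma 3.58.1 (R 4.3.3; trended, robust variance) was run on log2(scaled FPKM + 1). Levels are in scaled FPKM, and fold changes understate the change of low genes. Genes that reached 1 FPKM in 4 or more libraries were kept (13470), all 16 libraries entered 1 fit with 4 groups (12 residual degrees of freedom), and p-values were adjusted by Benjamini-Hochberg over all genes, with calls under 0.05. Ratios of paralogues were tested with exact two-sided permutation tests, adjusted over 12 tests. Replicates are mice, and sex per animal is not in the labels. The fit was tested on simulated data with known changes in Hip.IP against Hip.input. Those data held no animal effects and no libraries that stood apart, so the test covers neither these nor the other comparisons.

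All 36 members may be named. Of the other exocytosis genes, up to 4 per direction and comparison are named, those of largest change that were called, moved alike in each of the 4 animals and had a group mean of 5 FPKM or more. The members, roles, lists and markers were chosen with earlier results of these data known.

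The labels number the animals, and each animal gave all 4 libraries, so the numbers pair the samples. After group means were removed, same-animal libraries correlated across genes at 0.308 to 0.532 between IPs, 0.053 to 0.319 between inputs, 0.085 to 0.172 for Hip.IP with Hip.input and -0.008 to 0.085 for Str.IP with Str.input. The animal entered as a block in an alternative. The 29 alternatives changed the scaling, pseudocount, filter, variance model or libraries used. Alternatives for the wider list, the spread and the percent of input were chosen after seeing the data. Promoters came from RefSeq (GRCm38.p6). Python 3.11.15, pandas 2.3.3 and matplotlib 3.10.9 were used for tables and figures. Some genes of the wider list and of the annotation are not reported here.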

Additional observations from a re-analysis of the deposited data

Results flagged for a closer look

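Of 144 groups of 4 libraries checked (36 genes in 4 groups), 7 held a library that lay far from the other 3 by Dixon's gap ratio at the 95% level, which chance does in about 1 in 20 groups. In Str.input of animal 974, Syt7 was low at 4.11 FPKM, against 7.64 to 7.76 FPKM in the other 3. In the same library Cplx1 was low at 84.1 FPKM (others 123.4 to 124.9), and Cplx2 was high at 302.6 FPKM (others 234.7 to 243.2). In Hip.input of 974, Syp was low at 382.3 FPKM (others 452.9 to 459.2), and Slc32a1 was low at 5.26 FPKM (others 6.75 to 7.02). Slc17a6 was high in Str.input of 977 at 2.1 FPKM (others 0.111 to 0.447), and Slc32a1 was low in Str.IP of 970 at 1.24 FPKM (others 2.03 to 2.16). The 7 cases came from 4 libraries, and 5 of them from the 2 inputs of animal 974.

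The change of IP over input differed between regions, by the test of the difference itself (limma, adjusted over all genes), for 14 of the 36 genes, as log2 of striatum minus hippocampus. Over all genes tested, this change was called higher in striatum for 8.47% and lower for 5.33%. Among the 36 genes it was higher in striatum for Slc17a7 (2.33), Syp (1.93), Syn2 (1.72), Slc17a6 (1.43), Stx1a (1.35), Bsn (1.13), Rab3a (1.12), Syt7 (1.11), Vamp1 (1.05), Unc13a (0.94) and Syngr1 (0.63). It was lower in striatum for Unc13c (-1.29), Sv2c (-1.09) and Vamp3 (-0.64). The values of Slc17a7, Slc17a6 and Sv2c rest on levels near the added 1 FPKM, and with a pseudocount of 0.1 FPKM they did not pass (1.28, 1.64 and -0.54). Stx1a, Vamp1, Rab3a, Syngr1, Unc13a and Syt7 did not pass on that scale either. Of the 14 calls, 2 (Syn2 and Unc13c) held in every alternative in which they were fitted. As a percent of input, Slc17a6 was lower in striatum in 2 of 4 animals.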

How the results depend on the processing

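All 34 calls of IP against input in hippocampus held in each of the 29 alternatives in which the gene was fitted, as did 30 of 35 in striatum, 4 of 6 between IPs, 17 of 23 between inputs and 2 of 14 for the region difference. The alternative that fitted only the groups compared did not include the region difference. With the animal as a replicate block (paired by the labels), no call was lost and 3 were gained between IPs and 3 between inputs, as given in the text, and no other call changed. Under that pairing the exact sign-flip test of the ratios cannot go below p = 0.125, and the 7 ratios that passed (6.30 and 5.42 for Snap23/Snap25, 2.84 and 1.94 for Vamp3/Vamp2, 3.55 and 3.82 for Vamp8/Vamp2, 2.40 for Stx4a/Stx1a in hippocampus) did not pass (adjusted p = 0.188). Leaving out each animal, where the exact permutation test of 3 against 3 cannot go below p = 0.1, gave 5.18 to 5.79 and 6.24 to 6.44 for Snap23/Snap25 in striatum and hippocampus, 1.86 to 2.08 and 2.69 to 3.03 for Vamp3/Vamp2, 3.36 to 3.98 and 3.39 to 3.63 for Vamp8/Vamp2, and 2.23 to 2.61 for Stx4a/Stx1a in hippocampus. Without Str.input of 971 and 974 (smallest p 0.0667) the striatal ratios were 5.26, 1.98 and 3.15.

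Genes called higher in striatal IP numbered 2 in place of 4 without scaling, with the same sum in every library, or without animal 970 or 971 (2 to 4 over the animals). Genes called lower in Str.IP than in Hip.IP numbered 1 in place of 2 without scaling or with the same sum, 1 to 3 with a library or animal left out, and 4 without Str.input of 971 and 974. For the region difference, 4 in place of 11 were higher with a pseudocount of 0.1, and 2 to 12 with a library or animal left out. Without scaling 1 in place of 3 was lower, and 1 to 4 with a library or animal left out. Among single genes, Stx4a in hippocampus turned to -0.40 (adjusted p = 0.0369) with the same sum, and Slc32a1 in the region difference turned to 1.44 (adjusted p = 0.0240) with a pseudocount of 0.1. The causes were not tested. Without scaling, the share of calls that were higher was 69.4% in place of 57.2% between IPs and 72.2% in place of 61.4% for the region difference, with medians over all genes of 0.11 and 0.25.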
